A study of Mus musculus with 14 samples.

Results

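The 6 genes described here encode secreted proteins of the acute phase response and of the alternative pathway of complement: Saa3, Hp and Slpi on one side, Cfb, C3 and Cfp on the other. They were taken by symbol, 6 of the 24980 genes of a table of mouse bone marrow dendritic cells and 6 of the 17118 genes of a table of bone marrow monocytes and macrophages. They were chosen by their CPM levels, known from both tables, and by how those differ between the groups, so their own values are a description and carry no p-value. Expression was measured by RNA sequencing of sorted bone marrow cells after depletion of ribosomal RNA. The unit was taken as CPM, reads scaled to a common library total and not divided by gene length. This was inferred from the values, which were deposited under the name FPKM. Levels are compared within a gene and not between genes.

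Dendritic cells came from mice given a single dose of PAM3CSK4, a synthetic agonist of the TLR1/2 receptor pair that senses bacterial lipopeptides (4 libraries), or from mice given vehicle (4 libraries). Macrophages (3 libraries) and monocytes (3 libraries) were collected at baseline. The study's design text calls the mice wild type, whereas the extraction protocol gives all sorted cells as coming from Cx3cr1gfp/+ mice, which carry green fluorescent protein (GFP) at 1 copy of Cx3cr1, a chemokine receptor gene. Dendritic cells were sorted as high for GFP, MHC class II and CD11c. Macrophages were sorted as GFP-negative, MHC class II-high and CD169-positive, and both of these gates left out Gr-1 and B220. Monocytes were sorted as GFP-high, CD115-positive and B220-negative, at any Gr-1 level, low or high. Dose, interval, age and sex are not given in the labels, nor is it said that replicate libraries are separate mice, so the spread between them may partly be technical.

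The acute phase response is the change in plasma proteins that follows infection or injury, driven mainly by interleukin-6, interleukin-1 and tumour necrosis factor. Saa3 is a serum amyloid A protein made in the mouse largely outside the liver, by macrophages and adipocytes among others. Haptoglobin (Hp) binds free haemoglobin, and Slpi, the secretory leukocyte protease inhibitor, inhibits neutrophil elastase and cathepsin G. In human neutrophils both are also stored in granules. In the alternative pathway, cleaved C3 binds factor B (Cfb) to form an enzyme that cleaves more C3, and properdin (Cfp), released by myeloid cells, stabilises that enzyme.

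The PAM3CSK4 replicates were not alike, and replicate 4 stood apart from the rest. Its correlation with the other 3 PAM3CSK4 libraries over all tested genes was 0.879 to 0.894 on log2 values, against 0.938 to 0.961 among those 3. Itgax, which encodes the sorting marker CD11c, was at 27.5 CPM in replicate 4 and at 181 to 283 CPM in the other PAM3CSK4 libraries, against 170 to 271 CPM with vehicle. The MHC class II gene H2-Ab1 was at 194 CPM in replicate 4 and at 948 to 1401 CPM in the other PAM3CSK4 libraries, against 1878 to 3155 CPM with vehicle. A list of 18 neutrophil markers summed to 12920 CPM in PAM3CSK4 replicate 4 and to 694, 1818 and 1474 CPM in PAM3CSK4 replicates 1, 2 and 3, against 603 to 1061 CPM with vehicle. None of these 18 genes was at the lowest value in every dendritic cell library, although Ly6g, a surface marker of mature neutrophils, reached only 2.48 CPM in replicate 4, with a maximum of 0.264 CPM among the other PAM3CSK4 libraries and of 0.201 CPM among the vehicle libraries. A list of 17 dendritic cell markers summed to 1154 to 7901 CPM with PAM3CSK4 and 13617 to 16960 CPM with vehicle, and 5 of its genes fell and 0 rose. Values of the 6 genes are therefore given with and without that library. In such bulk samples a change in the make-up of the sorted cells and a change of RNA per cell cannot be told apart.

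The stretch upstream of the transcription start is shown for Saa3, Slpi and C3, because it holds the same 8-letter pattern in these members and because transcription factors of the C/EBP family are known to drive acute phase genes. RefSeq start sites of the build GRCm38.p6 were given for 4 of the 6 genes, namely Saa3, Slpi, C3 and Cfp. The capitals mark matches to TTGCNNAA or, on the other strand, to TTNNGCAA, a relaxed form of the C/EBP consensus. All lie on the minus strand, at chr7:46715677-46715926 for Saa3, chr2:164356508-164356757 for Slpi and chr17:57228137-57228386 for C3, and each run ends at the base before the start.
Saa3: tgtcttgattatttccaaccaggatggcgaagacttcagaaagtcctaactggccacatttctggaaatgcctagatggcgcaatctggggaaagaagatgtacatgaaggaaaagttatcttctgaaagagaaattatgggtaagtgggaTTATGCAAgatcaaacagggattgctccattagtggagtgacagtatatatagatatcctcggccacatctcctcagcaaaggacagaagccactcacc
Slpi: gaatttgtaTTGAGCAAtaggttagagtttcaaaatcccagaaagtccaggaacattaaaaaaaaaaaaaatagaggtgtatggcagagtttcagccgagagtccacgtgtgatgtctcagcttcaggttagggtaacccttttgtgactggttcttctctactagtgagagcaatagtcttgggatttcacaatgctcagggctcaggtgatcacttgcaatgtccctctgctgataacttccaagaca
C3: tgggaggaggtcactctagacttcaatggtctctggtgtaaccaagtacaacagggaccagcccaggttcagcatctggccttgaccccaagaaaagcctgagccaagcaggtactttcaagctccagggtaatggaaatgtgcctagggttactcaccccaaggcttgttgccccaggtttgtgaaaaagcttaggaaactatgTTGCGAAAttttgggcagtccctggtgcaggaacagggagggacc
The match began 99 bases before the start in Saa3, 241 bases before it in Slpi and 45 bases before it in C3. The Cfp window held none. Of 32817 promoter windows of 250 bases, 9.57% held the pattern, so its presence is common. The STAT pattern TTCNNNGAA, in 7.01% of windows, and the NF-kB consensus, in 7.25%, were not in any of the 4 windows. A match is a run of letters and not evidence of binding.

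Saa3 (chromosome 7, 46711998 to 46715676 in mm10, minus strand) separated the dendritic cell groups most. It was at 13.7, 646, 221 and 153 CPM in PAM3CSK4 replicates 1 to 4, whereas with vehicle it was listed at the lowest value of the table in replicates 1, 2 and 4 and at 0.281 CPM in replicate 3. Every PAM3CSK4 library was above every vehicle library, and the lowest PAM3CSK4 library lay 47.0-fold under the highest. The group means were 258 ± 272 CPM with PAM3CSK4 and 0.0704 ± 0.141 CPM with vehicle (SD, n = 4 each). On the scale log2(CPM + 1) the change was 6.98 ± 0.84 (SE). It was 6.92 without PAM3CSK4 replicate 4, 6.22 without replicate 2 and 8.04 without replicate 1. With 3 vehicle libraries at the lowest value the size of the change depends on the pseudocount, and it spanned 4.83 to 9.88 over the pseudocounts, filters and scalings tried.

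The other serum amyloid A genes of the same cluster on chromosome 7 did not share this level. Saa1 reached at most 0.020 CPM with PAM3CSK4 and was at the lowest value with vehicle. Saa2 was at the lowest value in all PAM3CSK4 libraries and reached at most 0.019 CPM with vehicle, and Saa4 was at the lowest value in all 8 libraries. None of the 3 could be tested. Hepatocyte markers, whose cells make most circulating serum amyloid A, summed to at most 0.017 CPM over 8 genes with PAM3CSK4 and at most 0.504 CPM with vehicle.

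Hp (chromosome 8, 109575128 to 109579172, minus strand) was at 15.7, 45.7, 30.5 and 444 CPM in PAM3CSK4 replicates 1 to 4, against 9.76, 21.4, 12.4 and 23.9 CPM in vehicle replicates 1 to 4. One library, PAM3CSK4 replicate 4, lay far above the other 7, and PAM3CSK4 replicate 1 lay within the vehicle range, so the groups overlapped. The means were 134 ± 207 CPM with PAM3CSK4 and 16.9 ± 6.86 CPM with vehicle (SD, n = 4 each). The log2 change of 1.77 ± 0.78 (SE) did not pass the test across all genes and was 0.79 without PAM3CSK4 replicate 4.

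Slpi (chromosome 2, 164354070 to 164356507, minus strand) had the same outline over the libraries. It was at 2.52, 4.39, 4.13 and 43.2 CPM in PAM3CSK4 replicates 1 to 4, against 0.908, 2.37, 2.12 and 3.44 CPM in vehicle replicates 1 to 4. Replicate 4 was again the high library, and replicate 1 lay within the vehicle range. Slpi averaged 13.6 ± 19.8 CPM with PAM3CSK4 and 2.21 ± 1.04 CPM with vehicle (SD, n = 4 each). Its log2 change of 1.40 ± 0.64 (SE) did not pass and was 0.58 without PAM3CSK4 replicate 4.

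Cfb (chromosome 17, 34856374 to 34862514, minus strand), the protease of the alternative pathway convertase, was at 12.5, 211, 41.5 and 31.0 CPM in PAM3CSK4 replicates 1 to 4, against 1.51, 2.43, 3.47 and 2.13 CPM in vehicle replicates 1 to 4. All PAM3CSK4 libraries were above all vehicle libraries, and replicate 2 was the highest, as it was for Saa3. The means were 74.1 ± 92.3 CPM with PAM3CSK4 and 2.39 ± 0.819 CPM with vehicle (SD, n = 4 each), a log2 change of 3.75 ± 0.63 (SE). The change was 3.90 without PAM3CSK4 replicate 4 and 2.99 without replicate 2. C2, the classical pathway homologue of Cfb and its neighbour on chromosome 17, stayed near the detection limit at 0.174 to 0.562 CPM with PAM3CSK4 and 0.132 to 0.435 CPM with vehicle, and was not tested.

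C3 (chromosome 17, 57203967 to 57228136, minus strand), the component on which all complement pathways converge, was at 64.7, 216, 102 and 679 CPM in PAM3CSK4 replicates 1 to 4, against 110, 155, 93.3 and 146 CPM in vehicle replicates 1 to 4. The PAM3CSK4 libraries lay on both sides of the vehicle range, with replicate 1 below it, replicate 3 inside it and replicates 2 and 4 above it. C3 averaged 265.5 ± 283 CPM with PAM3CSK4 and 126 ± 29.4 CPM with vehicle (SD, n = 4 each). The log2 change of 0.51 ± 0.56 (SE) did not pass, and without PAM3CSK4 replicate 4 it was −0.13, the opposite direction.

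Cfp (chromosome X, 20925454 to 20931555, minus strand) was at 175, 397, 273 and 133 CPM in PAM3CSK4 replicates 1 to 4, against 94.7, 126, 86.0 and 121 CPM in vehicle replicates 1 to 4. The groups did not overlap, but replicate 4, the highest PAM3CSK4 library for Hp, Slpi and C3, was here the lowest and lay only just above the vehicle range. The means were 245 ± 117 CPM with PAM3CSK4 and 107 ± 19.5 CPM with vehicle (SD, n = 4 each), a log2 change of 1.08 ± 0.32 (SE) that did not pass. Without PAM3CSK4 replicate 4 the change was 1.33 and passed the threshold, which is a description as for the other members.

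**Figure D1:**
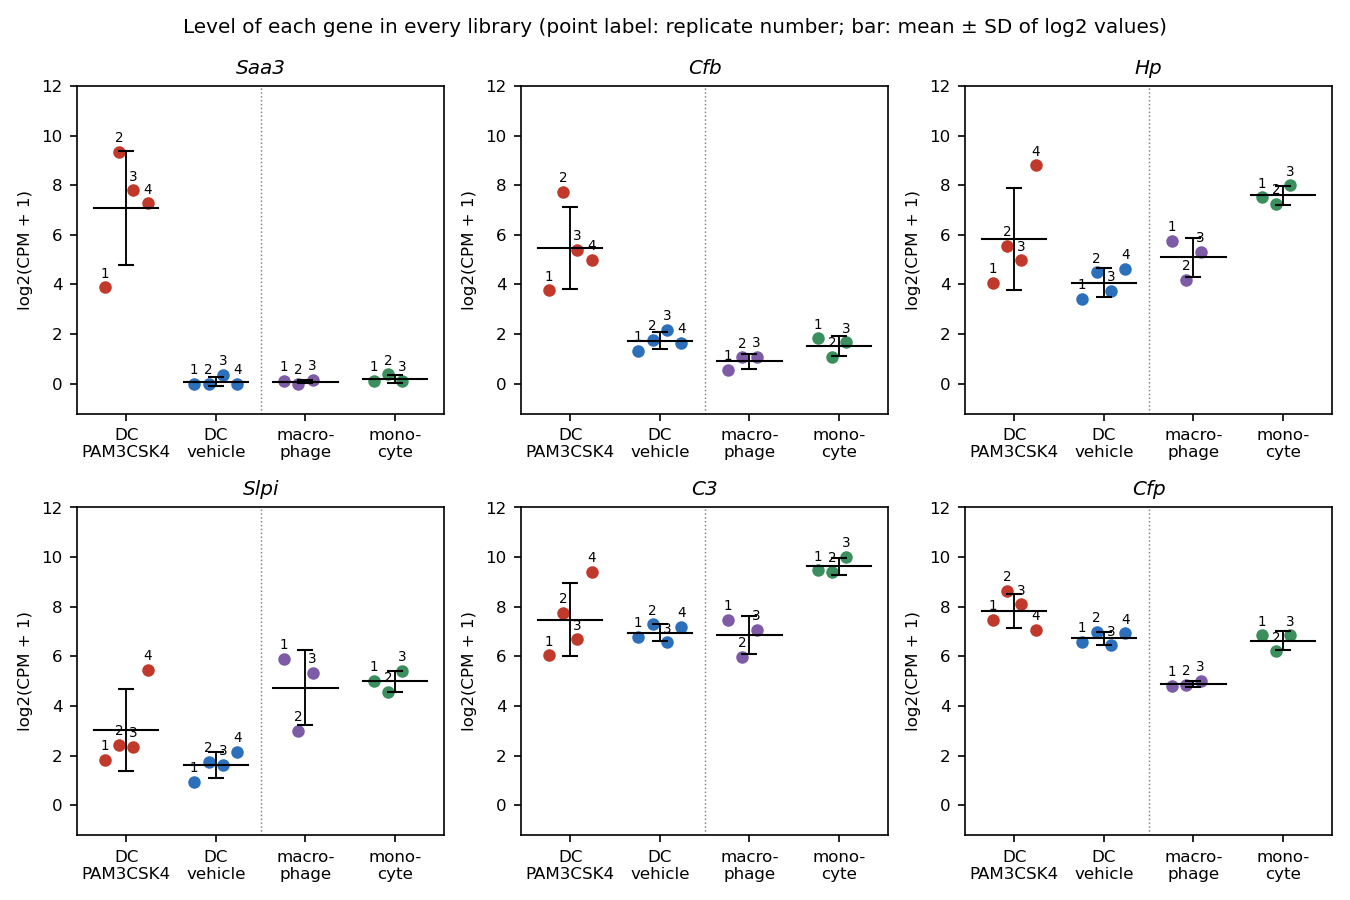
Level of each of the 6 genes in all 14 libraries as log2(CPM + 1), with the replicate number above each point and the mean ± SD of the log2 values as bars (n = 4 for each dendritic cell group, n = 3 for macrophages and for monocytes); the dotted line parts the 2 separately made tables. Saa3 and Cfb stand clear of vehicle in all 4 PAM3CSK4 libraries, whereas Hp, Slpi and C3 are highest in replicate 4.

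Of the 6 genes, 2 (Saa3 and Cfb) were past the threshold as higher with PAM3CSK4, an adjusted p of 0.05 in limma over all genes, and 0 were lower. Of all 11377 genes tested, 2.82% were called higher, 2.29% lower and 5.12% in either direction. The groups did not overlap for Saa3, Cfb and Cfp, all of them higher with PAM3CSK4, and the background share of non-overlapping genes in that direction was 10.1%. Since the genes were chosen with these values known, nothing is read from these counts. The median log2 change was 1.58 over the 6 genes and 0.20 over all genes tested. Saa3 and Cfb were called with any 1 of the 8 libraries left out, while with no filter on low values Cfb was lost and Saa3 was the 1 gene called. Nothing is read from how these calls held either, since the genes were chosen by these values.

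**Figure D2:**
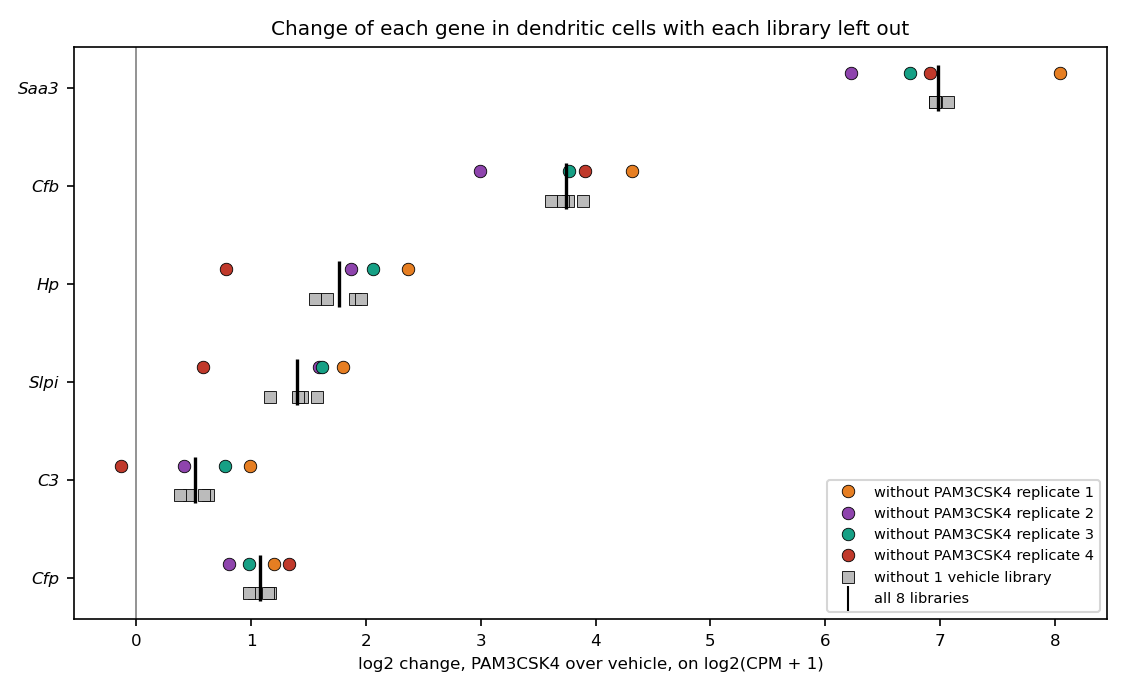
Log2 change of each gene in dendritic cells, PAM3CSK4 over vehicle on log2(CPM + 1), with all 8 libraries (black bar), with 1 PAM3CSK4 library left out (coloured circles) and with 1 vehicle library left out (grey squares). The change of Hp drops to 0.79 and that of C3 to −0.13 without PAM3CSK4 replicate 4, whereas Saa3 stays between 6.22 and 8.04 and Cfb between 2.99 and 4.32.

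The dendritic cell library with the highest level was not the same for all 6 genes. Saa3, Cfb and Cfp were highest in PAM3CSK4 replicate 2, and Hp, Slpi and C3 were highest in PAM3CSK4 replicate 4. Replicate 1 was the lowest PAM3CSK4 library for 5 of the 6 genes, the exception being Cfp. Over the 8 libraries Pearson's r of the log2 values was 0.975 for Saa3 with Cfb and 0.895 for Cfb with Cfp. It was 0.987 for Hp with Slpi and 0.921 for Hp with C3. Between genes highest in different libraries it lay between 0.084 for C3 with Cfp and 0.620 for Saa3 with Hp. The gap between these sets and the place of C3 rested on PAM3CSK4 replicate 4. Over the 7 libraries without it, r was still 0.982 for Saa3 with Cfb, 0.958 for Cfb with Cfp and 0.917 for Hp with Slpi. Across the sets it was then 0.868 for Hp with Cfp, 0.787 for Hp with Cfb and 0.757 for Hp with Saa3. These were all above the 0.646 for Hp with C3 and the 0.373 for Slpi with C3. These values describe 8 libraries that share the treatment split and are given with no p-value.

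How closely each gene followed the neutrophil markers also depended on PAM3CSK4 replicate 4. Against the mean log2 level of the 18 markers, r was 0.996 for Hp, 0.979 for Slpi and 0.907 for C3 over the 8 libraries, and 0.672 for Saa3, 0.581 for Cfb and 0.290 for Cfp. Over the 7 libraries without PAM3CSK4 replicate 4 it was 0.976 for Hp, 0.944 for Cfp, 0.884 for Cfb, 0.874 for Slpi, 0.868 for Saa3 and 0.583 for C3, so that Cfp and Cfb followed the markers at least as closely as Slpi. Leaving out PAM3CSK4 replicates 4 and 2, the 2 libraries farthest from the median of the markers, r over 6 libraries was 0.957 for Hp, 0.880 for Slpi, 0.879 for Cfp, 0.736 for Saa3, 0.720 for Cfb and 0.167 for C3. Lcn2, a siderophore-binding protein of neutrophil granules, was at 24.3, 163, 124 and 1317 CPM in PAM3CSK4 replicates 1 to 4, against 15.2 to 26.1 CPM with vehicle. Of the 16 neutrophil markers tested, 2 (Mmp8 and Csf3r) were called higher and 0 lower, with a median log2 change of 1.84. The call of Csf3r was lost in 7 of the 8 fits that left out 1 library and under 6 of 9 other settings (limma adjusted p up to 0.133), and that of Mmp8 was lost without vehicle replicate 1 and in the unfiltered table (up to 0.082). Erythroid markers, 11 genes, moved as well, with sums of 99.8, 397, 282 and 1198 CPM in PAM3CSK4 replicates 1 to 4 against 28.7 to 227 CPM with vehicle. Against their mean log2 level, r over the 8 libraries was 0.915 for Hp, 0.898 for Slpi, 0.796 for C3 and lower for the others. Without PAM3CSK4 replicate 4 it was 0.862 for Hp, 0.846 for Slpi, 0.789 for Cfp, 0.446 for C3 and between these for Saa3 and Cfb. Hp and Slpi thus followed both lists, with r over 8 and over 7 libraries lower for the erythroid list. Macrophage markers, 16 genes, summed to 542, 2932, 1220 and 669 CPM in PAM3CSK4 replicates 1 to 4 against 835 to 1438 CPM with vehicle, and were highest in replicate 2, the library highest for Saa3, Cfb and Cfp. The macrophage markers did not move together. Of 15 tested, 4 (Marco, Cd5l, Spic and Hmox1) were called higher and 3 (Cd163, Mrc1 and Axl) lower, with a median log2 change of −0.085. Against the mean log2 level of these macrophage markers r was 0.388 for Saa3, 0.514 for Cfb and 0.636 for Cfp over the 8 libraries. Without PAM3CSK4 replicates 2 and 1, the farthest from the median, it was −0.097, −0.077 and 0.439 for these genes, so the match of Saa3 and Cfb rested on those 2 libraries. The part of these other cells in the levels of the 6 genes was not tested.

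**Figure D3:**
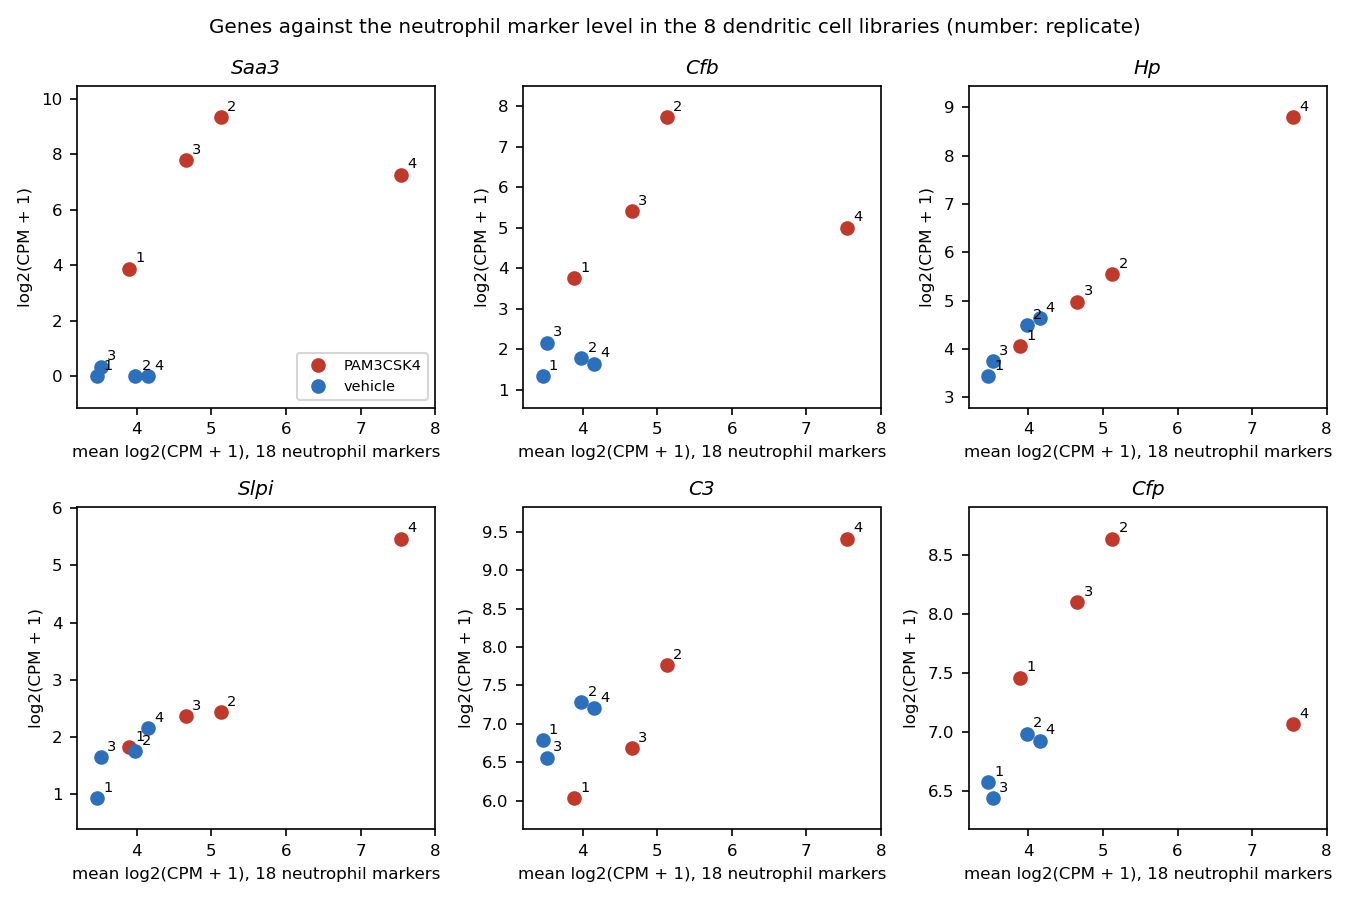
Each gene, as log2(CPM + 1), against the mean log2(CPM + 1) of 18 neutrophil markers in the 4 PAM3CSK4 (red) and 4 vehicle (blue) dendritic cell libraries, with replicate numbers beside the points. Hp and Slpi rise with the marker level across all 8 libraries, while Saa3, Cfb and Cfp are highest in PAM3CSK4 replicate 2 and not in replicate 4, where the marker level is greatest.

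Likeness to other genes over the 8 dendritic cell libraries was taken as Pearson's r of log2 values, among tested genes with a group mean of at least 5 CPM. For Saa3 the closest genes were Fpr1 (r = 0.991) and Fpr2 (0.989), which encode formyl peptide receptors, and Snu13 (0.986), a component of the spliceosome. For Cfb they were Cd38 (0.996), an NAD-consuming ectoenzyme, the dicarboxylate transporter gene Slc13a3 (0.983) and the proteasome subunit gene Psma2 (0.982). For Cfp they were Lst1 (0.992), Pik3ap1 (0.985) and Etv5 (0.985). For Hp they were Itgb2l (0.999), Mgam (0.995) and the neutrophil granule gene Ngp (0.994), and for Slpi they were Rflnb (0.989), Itgb2l (0.989) and Hp itself (0.987). For C3 the closest were Aatk (0.973), Slc27a4 (0.970) and Abhd11 (0.969). Itgb2l and Ngp are also in the list of neutrophil markers.

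Of 12 genes of the alternative pathway list that are reported here, 2 could be tested, of which 1 rose, 0 fell and 1 did not pass the test. For this list and those below, 2.82% of all 11377 genes tested were called higher and 2.29% lower. No list was tested as a set. Cd55, a membrane protein that speeds the decay of the convertase, averaged 5.30 ± 3.35 CPM with PAM3CSK4 and 0.467 ± 0.265 CPM with vehicle (SD, n = 4 each; log2 change 1.93 ± 0.39, limma adjusted p = 0.018). Its call was lost without vehicle replicate 1, 2 or 4 and in the unfiltered table (highest adjusted p 0.082). Cr1l, another membrane regulator, had a log2 change of −0.05 ± 0.24 (SE). Cfd, the protease that activates factor B, reached at most 0.071 CPM with PAM3CSK4 and 0.167 CPM with vehicle, and Cfi, the protease that inactivates C3b, was at the lowest value in all 8 libraries, so neither was tested.

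Among complement receptors 2 of 7 tested rose and 0 fell. C3ar1, the receptor of the C3 fragment C3a, was at 119, 312, 220 and 53.0 CPM in PAM3CSK4 replicates 1 to 4, against 27.7, 48.1, 43.8 and 20.3 CPM in vehicle replicates 1 to 4 (log2 change 2.10 ± 0.47, limma adjusted p = 0.028). Like Cfp, it was highest in PAM3CSK4 replicate 2 and lowest in replicate 4. Itgam, the alpha chain of complement receptor 3, rose by 1.5 ± 0.34 (SE) on the log2 scale (limma adjusted p = 0.027). The calls of these 2 genes were lost in 6 and 5 of the 8 fits that left out 1 library (adjusted p up to 0.11). In the classical and lectin pathways 0 of 7 tested genes rose and 1 fell, the ficolin gene Fcna (log2 change −1.45 ± 0.36, limma adjusted p = 0.041, lost with any of 6 libraries left out). Of the terminal components only Clu, which encodes the regulator clusterin, was tested and it did not pass (log2 change 0.90 ± 0.38).

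Of 29 other acute phase proteins listed, 7 were tested, 2 rose and 0 fell, with a median log2 change of 1.38 against 0.20 over all genes. Ceruloplasmin (Cp), the copper-carrying ferroxidase, was at 14.5, 68.7, 44.6 and 18.1 CPM in PAM3CSK4 replicates 1 to 4, against 3.33 to 5.60 CPM with vehicle (log2 change 2.57 ± 0.42, limma adjusted p = 0.0077). Its order over the PAM3CSK4 libraries, with replicate 2 highest and replicate 1 lowest, was that of Saa3 at both ends. Serpina3g, a serine protease inhibitor whose span in the table overlaps that of Serpina3f, rose by 1.64 ± 0.35 on the log2 scale (limma adjusted p = 0.022). Among the receptors of serum amyloid A and haptoglobin with the genes of haem breakdown, 4 of 12 rose and 1 fell. Fpr2, a receptor of serum amyloid A, was at 6.03, 67.3, 30.3 and 39.1 CPM in PAM3CSK4 replicates 1 to 4, against 2.10, 1.27, 2.53 and 1.47 CPM in vehicle replicates 1 to 4 (log2 change 3.32 ± 0.54, limma adjusted p = 0.0077), and Fpr1 rose by 3.72 ± 0.60 (limma adjusted p = 0.0073). The haem oxygenase gene Hmox1 rose by 2.26 ± 0.45 (limma adjusted p = 0.017). Cd163, the receptor that takes up haptoglobin with haemoglobin, fell by 3.12 ± 0.32 on the log2 scale, averaging 4.31 ± 1.94 CPM with PAM3CSK4 and 44.4 ± 14.7 CPM with vehicle (SD, n = 4 each; limma adjusted p = 0.00035). The calls of Cp, Fpr1 and Fpr2 held with each library left out and were lost in the unfiltered table (adjusted p up to 0.063), and those of Serpina3g and Hmox1 were lost in 3 of the 8 fits without 1 library. The list of WAP domain proteins, the family of Slpi, also held serine protease genes, Serpinb1a, Serpinb6a and Grn. Of it, 0 of 9 tested genes were called by limma, and 3 were without PAM3CSK4 replicate 4.

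Of 20 tested genes that induce or transmit the acute phase response, 3 rose and 1 fell. Socs3, a feedback inhibitor of interleukin-6 signalling, averaged 107 ± 72.6 CPM with PAM3CSK4 and 10.7 ± 6.57 CPM with vehicle (SD, n = 4 each; log2 change 3.06 ± 0.53, limma adjusted p = 0.0089). Its call held with each library left out and was lost in the unfiltered table (adjusted p 0.069). Il1b rose by 2.11 ± 0.51 (limma adjusted p = 0.035) and Il1r1 by 1.29 ± 0.30 (limma adjusted p = 0.031), and both calls were lost in 5 or more of the 8 fits without 1 library. The interleukin-6 receptor gene Il6ra fell by 1.15 ± 0.21 (limma adjusted p = 0.011), with 51.4 to 67.1 CPM with PAM3CSK4 and 102 to 157 CPM with vehicle, and its call was lost without vehicle replicate 2 (adjusted p 0.051). Il6 itself reached 0.881 CPM at most with PAM3CSK4 and 0.166 CPM at most with vehicle, too low to test.

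**Figure D4:**
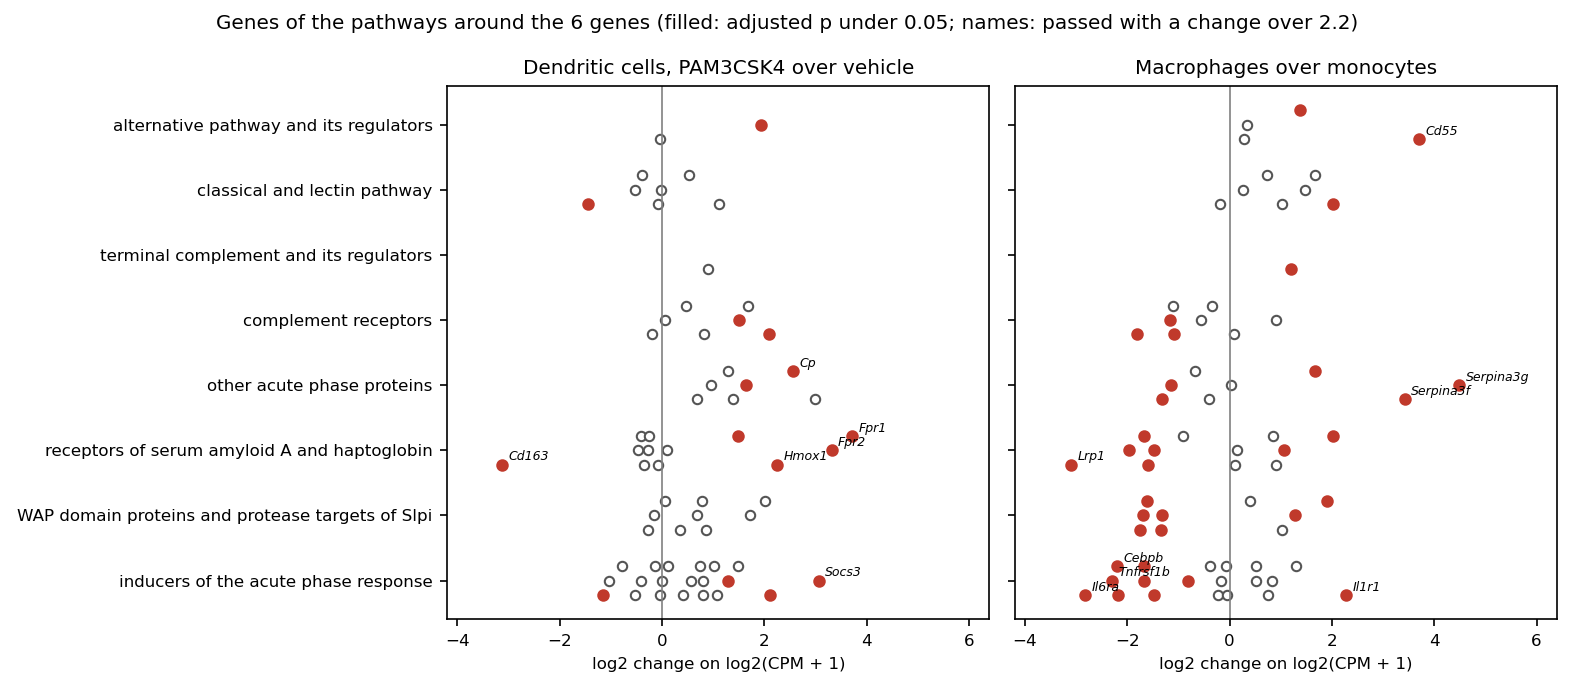
Log2 change on log2(CPM + 1) of the tested genes of 8 lists around the 6 members, 1 list per row, in dendritic cells (left, PAM3CSK4 over vehicle) and at baseline (right, macrophages over monocytes); filled points passed an adjusted p of 0.05 in limma, and names mark passed genes with a change over 2.2. Cd163 lies lowest on the left with Fpr1 and Fpr2 highest, and on the right most passed inducers lie below 0.

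At baseline, C3, Hp and Cfp were lower in macrophages than in monocytes, whereas the populations overlapped for Slpi. C3 was at 177, 62.5 and 134 CPM in macrophage replicates 1 to 3, against 707, 676 and 1024 CPM in monocyte replicates 1 to 3. The populations were far apart, at 125 ± 57.9 CPM in macrophages and 802 ± 193 CPM in monocytes (SD, n = 3 each), a log2 change of −2.78 ± 0.36 (SE). Hp was at 53.2, 17.3 and 38.6 CPM in macrophages, against 182, 151 and 254 CPM in monocytes. Again no library of one overlapped the other, and the log2 change was −2.50 ± 0.37 (SE). Cfp was at 27.0, 27.7 and 31.5 CPM in macrophages, against 114, 72.4 and 114 CPM in monocytes. Cfp averaged 28.7 ± 2.39 CPM in macrophages and 100.3 ± 24.1 CPM in monocytes (SD, n = 3 each), with a log2 change of −1.74 ± 0.25 (SE).

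Cfb was low in both, at 0.479, 1.09 and 1.10 CPM in macrophages against 2.55, 1.12 and 2.18 CPM in monocytes. The populations just failed to overlap, with a log2 change of −0.63 ± 0.32 (SE) that did not pass. Slpi was at 58.4, 7.06 and 39.3 CPM in macrophages, against 31.4, 22.7 and 41.7 CPM in monocytes. Its macrophage libraries spanned the monocyte range on both sides, and the log2 change of −0.26 ± 0.58 (SE) was 0.61 without macrophage replicate 2. Saa3 was at 0.0898 CPM, the lowest value of the table and 0.106 CPM in macrophages, against 0.0885, 0.300 and 0.0751 CPM in monocytes, below the filter of 1 CPM.

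Of the 5 genes that passed the filter in this comparison, 3 were called lower in macrophages and 0 higher, beside 7.42% called lower, 12.8% called higher and 20.2% called in either direction among 12188 genes. The populations did not overlap for Hp, C3, Cfp and Cfb, all of them lower in macrophages, and 13.8% of all genes were so. Nothing is read from these counts, since the genes were chosen with these values known. The median log2 change was −1.74 over these 5 genes and 0.10 over all genes. The calls of C3, Hp and Cfp held in every fit that left out 1 library and under every other setting tried, and Cfb was called as well after quantile normalization. How these calls held is likewise a description, as the genes were chosen by these values.

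The macrophage libraries also carried markers of other cells. Siglec1, which encodes the sorting marker CD169, was at 18.9, 18.6 and 25.2 CPM in macrophages, against 34.7, 2.2 and 14.1 CPM in monocytes, so the populations overlapped for it. Of 15 macrophage markers tested, 7 were called higher in macrophages and 1 (Adgre1) lower, with a median log2 change of 1.48. Neutrophil markers summed to 4249, 1744 and 2022 CPM in macrophage replicates 1 to 3, against 3516, 3870 and 2555 CPM in monocyte replicates 1 to 3. Hp, Slpi and C3 took the same order over the macrophage libraries as these sums, with replicate 1 highest and replicate 2 lowest. Over the monocyte libraries the 3 genes ran in the opposite order to the sums. They were highest in replicate 3, where the sum was lowest, and lowest in replicate 2, where it was highest. Mpo, a gene of this list, made up much of these sums, at 2486, 2402 and 1743 CPM in monocyte replicates 1 to 3. The mean log2 levels of the markers, 4.80, 4.17 and 4.12 in monocyte replicates 1 to 3, did not run in that opposite order. In macrophage replicates 1 to 3 these levels were 5.66, 4.81 and 5.19, the order of the sums. Of 16 neutrophil markers tested, 10 were called higher in macrophages and 4 lower. Plasma and B cell markers summed to 588 to 8646 CPM over 12 genes in macrophages and 113 to 132 CPM in monocytes. Monocyte markers summed to 494 to 928 CPM over 14 genes in macrophages and 7909 to 9163 CPM in monocytes, in a list that holds the gate's genes Csf1r and Cx3cr1. The part of these other cells in the differences of the 6 genes was not tested.

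Regulators, receptors and other genes around C3 and Cfb were counted in the same comparison, without testing any list as a set. Of all 12188 genes tested, 12.8% were called higher and 7.42% lower in macrophages. Of the 4 tested genes of the alternative pathway list reported here, 2 were higher and 0 lower in macrophages. Cd55 was at 6.91, 9.96 and 33.1 CPM in macrophages, against at most 0.206 CPM in monocytes (log2 change 3.70 ± 0.46, limma adjusted p = 0.00018). Of 8 complement receptor genes 3 were lower and 0 higher, with Itgam at a log2 change of −1.80 ± 0.29 (limma adjusted p = 0.00085). Of the other acute phase proteins 3 of 8 were higher, among them Serpina3g at 70.7 ± 19.5 CPM in macrophages and 2.17 ± 0.72 CPM in monocytes (SD, n = 3 each; log2 change 4.49 ± 0.30, limma adjusted p = 1.6e-05), and 2 were lower. Of the list of WAP domain proteins, serine proteases, Serpinb1a, Serpinb6a and Grn, 2 of 9 were higher and 5 lower. Serpinb6a was among those higher and Grn among those lower. The cathepsin G gene Ctsg had a log2 change of −1.76 ± 0.25 (limma adjusted p = 0.00046). Of the inducers 1 of 19 was higher and 8 were lower. Il6ra was at 37.2 ± 7.17 CPM in macrophages and 271 ± 63.9 CPM in monocytes (SD, n = 3 each; log2 change −2.82 ± 0.27, limma adjusted p = 3.2e-05), and Cebpb, a C/EBP factor of acute phase genes, had a log2 change of −2.20 ± 0.44 (limma adjusted p = 0.0037).

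The members are set side by side over the 4 groups, with the reminder that the dendritic cell values used here come from a separately made table. Each member had its own order. Saa3 was at 13.7 CPM or more in the PAM3CSK4 dendritic cells and at 0.300 CPM or less in each library of the other 3 groups, whose ranges overlap. Cfb was highest in PAM3CSK4 dendritic cells, where its lowest library, at 12.5 CPM, was above the highest of any other group, at 3.47 CPM in vehicle dendritic cells. Hp was highest in monocytes apart from PAM3CSK4 replicate 4, and its vehicle dendritic cell range of 9.76 to 23.9 CPM overlapped the macrophage range of 17.3 to 53.2 CPM. C3 was likewise highest in monocytes, and only PAM3CSK4 replicate 4, at 679 CPM, came within the monocyte range of 676 to 1024 CPM. Slpi was higher in macrophages and in monocytes, at 7.06 CPM or more, than in any dendritic cell library except PAM3CSK4 replicate 4. Cfp was highest in PAM3CSK4 dendritic cells and lowest in macrophages, with vehicle dendritic cells at 86.0 to 126 CPM and monocytes at 72.4 to 114 CPM overlapping between them. No test was made across the tables.

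In the coordinates of the table, Saa3 and Hp overlapped no other listed gene. Cfb, Slpi and C3 each overlapped 1 listed microRNA gene on the same strand, and the span of Cfp overlapped those of 10 entries of multi-copy families on the X chromosome. How reads shared by such genes were assigned is not given in the sources used here.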

How the data were processed

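Bulk RNA sequencing values of 14 libraries were used, grouped by the sample labels. Per the submitters' processing notes, STAR 2.5.3a, Partek and the build mm10 were used, and neither their roles nor the annotation or strand setting is known here. The authors deposited 2 tables named as FPKM whose values behave as CPM. After removing 0.0001, which every value appears to carry, 66.0% to 90.7% of low values per library (up to 50 steps, within 0.05 steps) were whole multiples of 1 step shared by all genes. In dendritic cell libraries this share was 75.9% to 80.1% for genes of short span and 58.0% to 60.6% for genes of long span. In macrophage and monocyte libraries it was 85.7% to 89.9% for short and 91.0% to 93.0% for long spans. If 1 step is 1 read, 1 CPM stands for 28.2 to 75.2 reads, and the listed genes of a library sum to 350368 to 578711 CPM. Too few values were whole for a count test. The test had been planned for FPKM and serves for CPM alike. The table of monocytes and macrophages also holds 3 dendritic cell columns of per-sample values. They give no treatment, match no single sample by name and were not used here.

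limma 3.58.1 (R 4.3.3; lmFit, then eBayes with its trend option) was run on each table alone, on log2(CPM + 1) and two-sided. P-values were adjusted by Benjamini-Hochberg over every tested gene, with a threshold of 0.05, and reflect the spread between these libraries. Testing asked for 1 CPM in at least 4 dendritic cell libraries, or in 3 macrophage and monocyte libraries. The fit was also run on simulated data. Its noise was independent between genes and equally wide in both groups, whereas PAM3CSK4 replicate 4 stood apart here. No call rests on that run. Log2 changes understate those of low genes. The 6 members and the 18 gene lists (8 of pathways, 10 of cell types) were chosen with earlier results of these data known, so members have no p-value. Named are all members, up to 4 called genes of each pathway list in order of unadjusted p, C2, Saa1, Saa2, Saa4, Cfd and Cfi, the 3 genes most like each member, and the markers given beside a member. One gene of the lists is not reported here and was left out of their counts. Cr1l, Il6, Clu in dendritic cells and Cebpb were named after their values were seen. Alternatives were other pseudocounts, filters and scalings, the replicate block, no intensity trend and each library left out. No pair of libraries was identical.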

Additional observations from a re-analysis of the deposited data

Results flagged for a closer look

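In groups of 4, the highest or lowest library of a member was set against Dixon's 95% critical value for 4 samples, by the gap to the nearest other library over the whole range. Of 12 groups checked, 4 had a library beyond it. The groups share the same libraries and the genes were chosen with these values known. The count is therefore a description and is not set against a chance rate. Hp was at 444 CPM in PAM3CSK4 replicate 4, with a gap of 0.930 of the range. Slpi was at 43.2 CPM in the same library, with a gap of 0.954. Cfb was at 211 CPM in PAM3CSK4 replicate 2, with a gap of 0.854. Saa3 was at 0.281 CPM in vehicle replicate 3, the one vehicle library with a value above the lowest, so that the gap is the whole range. The same PAM3CSK4 replicate 4 held the highest neutrophil marker sum, 12920 CPM, and the lowest Itgax level of the dendritic cell libraries, 27.5 CPM, and the part of these in Hp and Slpi was not tested.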

How the results depend on the processing

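The number of genes called in dendritic cells, 582, was 166 with no filter on low values, 976 with the replicate block, and between 184 (without vehicle replicate 2) and 1008 (without PAM3CSK4 replicate 1) with 1 library left out. It was 206, 226 and 261 without vehicle replicate 1, 3 or 4, and 258 without PAM3CSK4 replicate 3. Of the calls, 55.2% were higher as deposited. That share was 41.4% with each library rescaled to 1 total, 29.9% with medians centred and 35.1% with quantiles equalised. Those scalings moved the median change of all genes to 0.07, −0.02 and 0.02. Between macrophages and monocytes the count of 2468 was 1671 with the filter at 5 CPM and spanned 1699 to 3364 with 1 library left out, and the share of higher calls, 63.4% as deposited, was 72.9%, 51.3% and 44.8% under the same scalings.

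Among the members 2 changes turned round: C3 in dendritic cells was −0.13 without PAM3CSK4 replicate 4 and up to 0.99 without another library, and Slpi between macrophages and monocytes was 0.61 without macrophage replicate 2 and down to −0.83 without another library. The other members kept their direction under all settings tried, with Cfb in dendritic cells spanning 2.77 to 4.32 and Cfp 0.81 to 1.33.

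Whether replicate numbers pair the samples was not settled, and the main fits used no pairing. Same-numbered dendritic cell libraries had correlations of their deviations from the group means of 0.033, 0.290, −0.115 and 0.300. Differently numbered ones ran from −0.378 to 0.196. Between macrophages and monocytes the correlations were 0.183, 0.084 and 0.115 for same-numbered libraries. They ran from −0.118 to 0.019 for differently numbered ones. With the replicate block 3 members were called in dendritic cells (Saa3, Cfb and Cfp), and 2609 genes were called between macrophages and monocytes. Values under the filter, such as those of Saa3 outside PAM3CSK4, rest on few reads.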
